A study of Mus musculus with 12 samples.

Results

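The 10 genes described here belong to the ATF4 branch of the stress response and to serine synthesis, and were followed in muscle and brain of mice with and without a cachexia-inducing tumour. They were taken as a fixed list, with no threshold on measured values: Atf4, Atf3, Ddit3, Asns, Trib3, Chac1, Sesn2, Psat1, Phgdh and Mthfd2. The list was chosen with earlier results of these data known. All 10 were found among the 55416 gene identifiers of the deposited tables, and all 10 passed the minimum count in both tissues.

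Calf muscle (gastrocnemius) and hypothalamus, the brain region that regulates feeding and energy use, were sampled from 6 male BALB/c mice with a labelled age of 7 weeks. The CT-26 group was 3 mice given a subcutaneous abdominal injection of CT-26, an established colon carcinoma line of the mouse. Per the labels, tumour-bearing mice weighed 7 to 10% less than healthy mice by day 10 and were killed on day 25. The 3 control mice had no tumour injection, and whether their tissue was taken at the same age is not given. Each mouse gave 1 library per tissue, which made 12 libraries in 4 groups of 3, so replicates within a group are separate mice. No group carries a genetic alteration in the labels, and the tumour came from 1 cell line.

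ATF4 is a transcription factor whose messenger RNA is translated preferentially when kinases of the integrated stress response phosphorylate the translation factor eIF2. It works with partners such as C/EBP proteins on short elements near genes for amino acid supply, transfer RNA charging and the serine and folate pathways, and on genes that restrain the response. In skeletal muscle it is known for its role in atrophy programmes, and in the liver and brain for the response to amino acid shortage. Because ATF4 is controlled largely at translation, its messenger RNA level is not its activity.

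The C/EBP-ATF response element was searched as TGATGNAA, on both strands, in RefSeq promoter windows (build GRCm38.p6) that run from 250 bases before to 50 bases after each gene start. All 10 genes matched a window. The starts are those of RefSeq and can differ from the gene coordinates given below, which are GENCODE's. The Atf3, Psat1 and Mthfd2 windows and the Asns match lie inside those coordinates, and the Trib3 match lies just outside. The element was present in the windows of 4 of them, Atf3, Asns, Trib3 and Chac1, and in 3.97% of all 32851 windows. The genes were listed for their link to ATF4 and serine synthesis, so this contrast is not a test of enrichment. The stretches around these 4 matches are shown because this is the element through which ATF4 acts on its targets. They are written 5′ to 3′ on the strand of the gene, with the match in capitals.
Chac1: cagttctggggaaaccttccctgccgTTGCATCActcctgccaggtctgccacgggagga
Atf3: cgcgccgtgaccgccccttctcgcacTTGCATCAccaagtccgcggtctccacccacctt
Asns: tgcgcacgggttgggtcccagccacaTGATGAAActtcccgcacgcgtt
Trib3: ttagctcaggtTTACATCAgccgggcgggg
The Chac1 stretch is chr2:119351023-119351082 on the plus strand, with the match 193 bases upstream of the start. The Atf3 stretch is chr1:191183410-191183469 on the minus strand, with the match 110 bases upstream. The Asns stretch is chr6:7693210-7693258 on the minus strand, with the match 23 bases upstream. The Trib3 stretch is chr2:152344028-152344057 on the minus strand, with the match 14 bases after the start. Only the Asns match reads on the gene strand; the other 3 are on the opposite strand. No match was found in the windows of Atf4, Ddit3, Sesn2, Psat1, Phgdh or Mthfd2, and the palindrome TGACGTCA, found in 1.79% of all windows, was in none of the 10. A match is a description of the letters, and its absence says only that they are not in that window.

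Each muscle library held between 26015741 and 42771331 expected counts, and each hypothalamus library between 27195316 and 52535761. The tissue labels matched their defining markers. Muscle fibre genes summed to between 60730 and 107300 TPM (a level per transcript length, scaled to the library) in the gastrocnemius libraries and to between 16.6 and 33.0 in the hypothalamus. Hypothalamic neuron genes summed to between 3883 and 6286 TPM in the hypothalamus and to between 0.97 and 2.79 in the gastrocnemius. In each muscle group 1 library stood apart. Chi-square per gene was 176.15 and 175.75 against CT-26 mouse 2 and 93.11 between the other two, and 109.59 and 70.01 against control mouse 3 and 21.87 between the other two. Calls of the 10 genes that change without either library are given with and without it, and for the wider lists this is done in part. No call of the 10 genes within the muscle changed without control mouse 3. Below, CPM is the count scaled to a common library total after TMM normalisation, a level that is not corrected for gene length.

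In the gastrocnemius 3 of the 10 genes rose in CT-26 mice, namely Atf4, Chac1 and Trib3. Phgdh, the first enzyme of serine synthesis, fell. The other 6, among them the asparagine synthetase gene Asns, did not pass an adjusted p of 0.05 in edgeR's quasi-likelihood test. The background in this muscle was high: 38.0% of the 14265 genes tested were called, 19.6% higher and 18.3% lower, so 4 calls among 10 genes is a share near that of all genes. The median log2 fold change of the 10 was 0.24, against 0.0 over all genes tested.

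**Figure D1:**
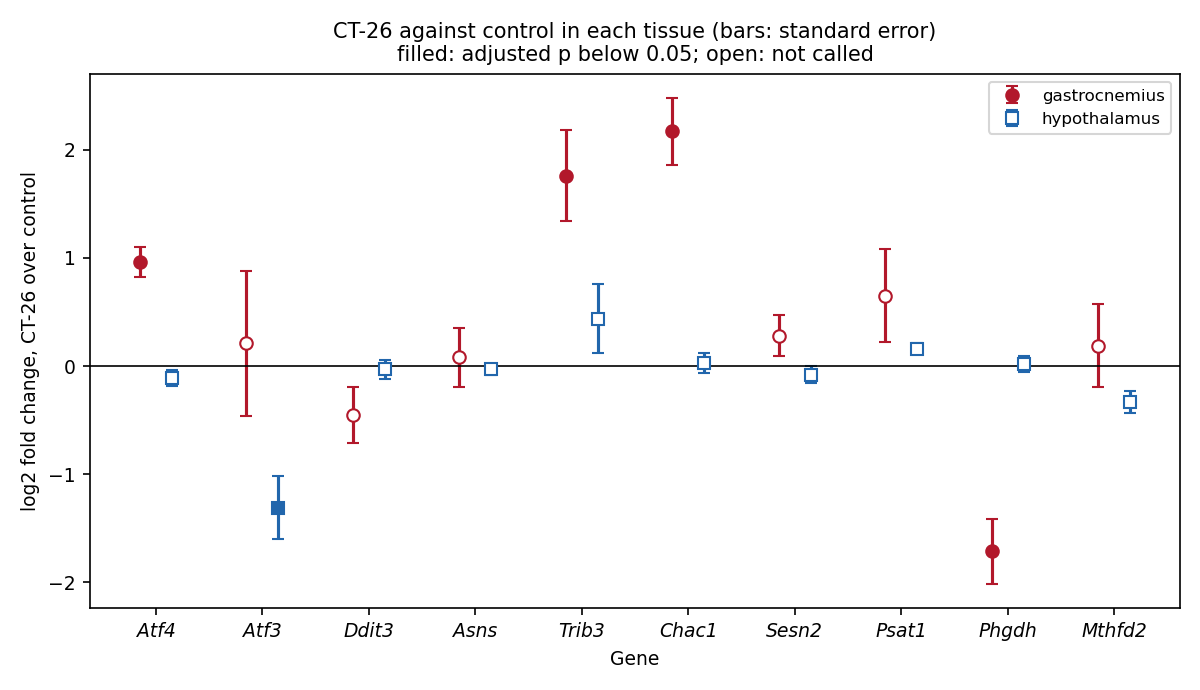
Log2 fold change of CT-26 over control for each gene (vertical axis) in the gastrocnemius (red circles) and the hypothalamus (blue squares); bars are standard errors and filled symbols passed an adjusted p of 0.05. Chac1, Trib3 and Atf4 lie above 0 and Phgdh below 0 in the gastrocnemius, and Atf3 alone is filled in the hypothalamus.

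Atf4, at chr15:80255184-80257541 on the plus strand, measured 317, 309 and 319 CPM in the muscle of CT-26 mice 1, 2 and 3 and 140.3, 182 and 164 CPM in control mice 1, 2 and 3. The 3 CT-26 libraries were close to each other and all lay above the controls. The log2 fold change was 0.96 ± 0.14 (SE), 1.94-fold (edgeR's quasi-likelihood test, adjusted p = 0.001535). Per length, Atf4 was at 246 ± 31.0 TPM in CT-26 and 97.35 ± 13.0 TPM in control muscle (SD, n = 3 each).

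Chac1, which encodes an enzyme that degrades glutathione and lies at chr2:119351229-119354381 on the plus strand, had the largest fold change of the 10. Its levels were 98.6, 166 and 87.0 CPM in CT-26 mice 1, 2 and 3 and 19.0, 35.7 and 23.5 CPM in controls. The groups did not overlap, and in each group mouse 2 was the highest. Chac1 rose by 2.17 ± 0.31 on the log2 scale, 4.49-fold (edgeR's quasi-likelihood test, adjusted p = 0.001393).

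Trib3, at chr2:152337422-152344032 on the minus strand, encodes a pseudokinase that ATF4 induces and that in turn restrains it. It was a gene of low level, at 2.18, 0.929 and 2.87 CPM in CT-26 muscle and 0.511, 0.550 and 0.711 CPM in control muscle. CT-26 mouse 2 was the lowest of its group and still above all controls. Trib3 rose by 1.76 ± 0.42 on the log2 scale, 3.39-fold (edgeR's quasi-likelihood test, adjusted p = 0.01252). Without control mouse 1 it was 1.66 ± 0.51 and just missed the threshold (adjusted p = 0.05167 in edgeR's test); without each other library in turn the call held, at 1.42 to 2.07.

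The other transcription factors were not called. Atf3, at chr1:191170296-191218039 on the minus strand, encodes a stress-induced factor that is itself an ATF4 target. It was at 17.1, 2.44 and 14.9 CPM in CT-26 muscle and at 3.62, 16.4 and 10.0 CPM in control muscle. The spread within each group was wider than the distance between them, with a log2 fold change of 0.21 ± 0.67 (edgeR's quasi-likelihood test, adjusted p = 0.8254).

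Ddit3, at chr10:127290774-127296288 on the plus strand, encodes CHOP, a factor linked to cell death under prolonged stress. Its levels were 5.91, 3.91 and 6.69 CPM in CT-26 muscle and 6.06, 6.45 and 10.1 CPM in controls, with overlap. The log2 fold change was -0.45 ± 0.26 (edgeR's quasi-likelihood test, adjusted p = 0.2032), and -0.22 with library totals only or -0.03 on log2(TPM + 0.5). Ddit3 overlaps the methionyl-tRNA synthetase gene Mars1 on the opposite strand. Mars1 had 8460 counts in CT-26 and 2965 in control muscle, and the strand setting of the counting is not given, so the Ddit3 counts may hold reads of its neighbour.

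Asns, at chr6:7675169-7693254 on the minus strand, encodes the enzyme that makes asparagine and is a much used reporter of ATF4 in cultured cells. It measured 1.95, 1.12 and 1.88 CPM in CT-26 muscle against 1.53, 1.39 and 1.81 CPM in controls. CT-26 mouse 2 lay below every control and CT-26 mice 1 and 3 above every control. Its log2 fold change was 0.08 ± 0.27 (edgeR's quasi-likelihood test, adjusted p = 0.8385).

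Sesn2, at chr4:132492032-132510501 on the minus strand, encodes a leucine sensor that restrains mTORC1, the growth-promoting kinase complex. Its CPM was 3.01, 2.71 and 2.93 in CT-26 muscle and 2.45, 2.64 and 2.06 in controls. All CT-26 values lay above the controls by a small margin, and the log2 fold change of 0.28 ± 0.19 did not pass (edgeR's quasi-likelihood test, adjusted p = 0.2698). Counted by overlap, 4 of the 10 genes lay wholly above and 1 wholly below the controls in muscle, against 26.3% and 25.3% of all genes tested, or 51.7% in either direction.

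The serine pathway did not move as a block. Phgdh, at chr3:98313170-98339990 on the minus strand, catalyses the first step from the glycolytic intermediate phosphoglycerate. It measured 0.297, 0.426 and 0.478 CPM in CT-26 muscle and 1.42, 1.36 and 1.10 CPM in controls. Every CT-26 value was below every control value, from 14, 11 and 16 counts against 39, 37 and 31. On the log2 scale the change was -1.71 ± 0.30, 3.27-fold lower (edgeR's quasi-likelihood test, adjusted p = 0.003311). Under a minimum of 1 CPM in 3 libraries Phgdh could not be tested in muscle. Its mean TPM was 0.323 in CT-26 and 0.787 in control muscle, and the limma fit of log2(TPM + 0.5) gave -0.64. An offset near these levels shrinks a ratio, but the fit also differs in scaling, and the share of each was not tested. The annotation holds 19 similar copies of Phgdh, at 90.4 to 98.7% identity over 355 to 1621 aligned bases, to which reads may be assigned. The copies held 2, 1 and 2 counts in CT-26 and 4, 13 and 7 in control muscle, and with Phgdh and its copies summed the log2 fold change was -1.84.

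Psat1, at chr19:15904678-15947337 on the minus strand, encodes the aminotransferase of the following step. Its muscle levels were 4.28, 1.05 and 3.11 CPM in CT-26 mice and 1.68, 1.80 and 1.99 CPM in controls. CT-26 mice 1 and 3 lay above all controls and CT-26 mouse 2 below all of them. The log2 fold change was 0.65 ± 0.43 (edgeR's quasi-likelihood test, adjusted p = 0.2615), and it rested on single libraries: 1.01 without CT-26 mouse 2 (adjusted p = 0.009929) and 0.21 without CT-26 mouse 1 (0.7411).

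Mthfd2, at chr6:83305691-83325908 on the minus strand, encodes a mitochondrial folate enzyme that uses the one-carbon units released from serine. It was at 3.37, 1.08 and 3.14 CPM in CT-26 muscle and at 1.90, 2.16 and 2.701 CPM in controls. The order by mouse was that of Psat1, with CT-26 mouse 2 lowest. The log2 fold change was 0.19 ± 0.38 (edgeR's quasi-likelihood test, adjusted p = 0.7228).

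**Figure D2:**
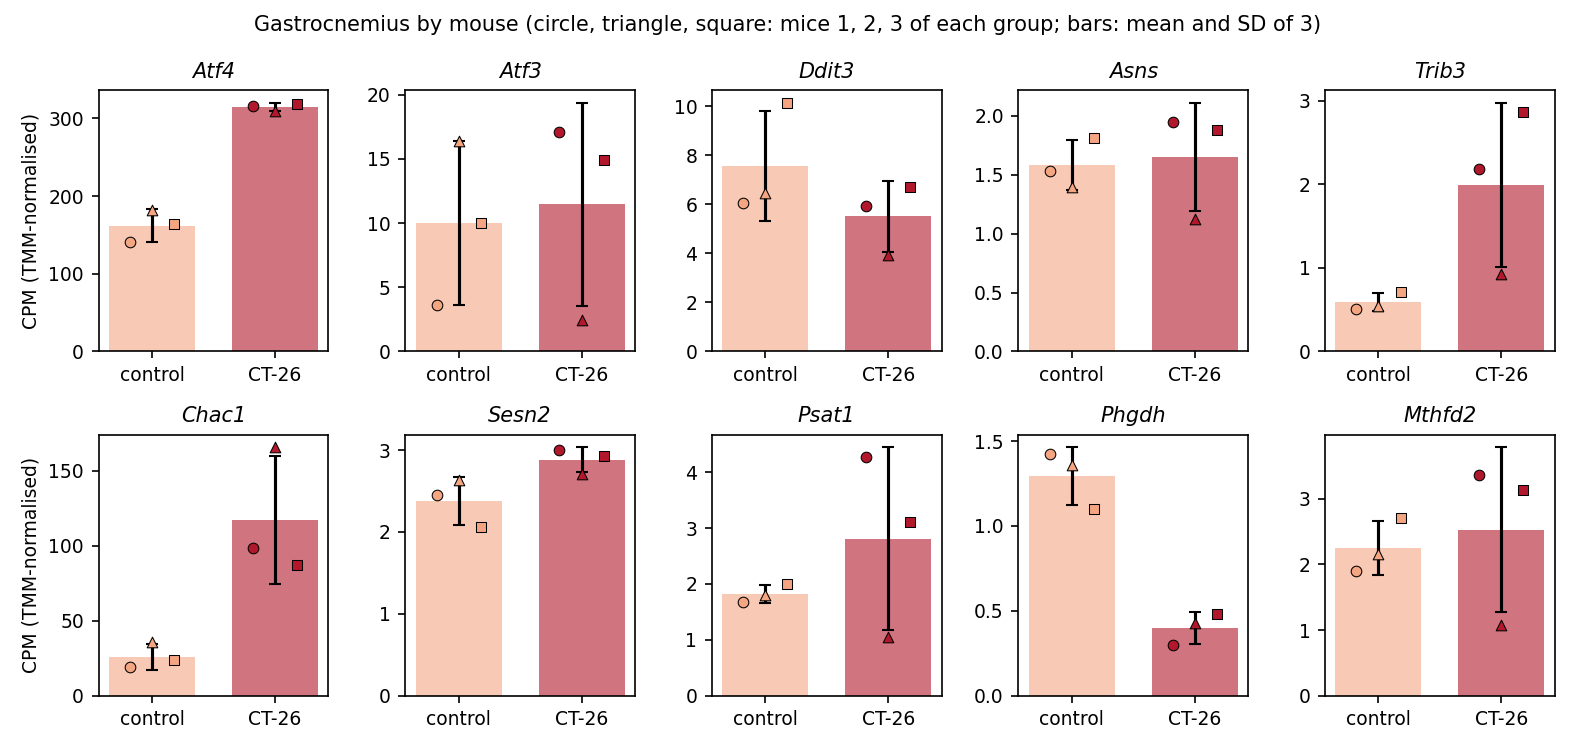
Gastrocnemius CPM of each gene, 1 panel per gene, for control (pale) and CT-26 (dark) mice; bars are means and error bars SD of 3 mice, and the circle, triangle and square are mice 1, 2 and 3 of each group. The CT-26 triangle is the lowest of its group in 8 of the 10 panels, all but Chac1, where it is the highest, and Phgdh.

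Markers of cell types moved in the muscle too, and their part in these results was not tested. Macrophage genes summed to 156, 48.0 and 172 TPM in CT-26 mice 1, 2 and 3 and to between 44.5 and 59.8 TPM in controls. For their sum CT-26 mouse 2 lay in the control range. Of these macrophage markers 1 of 6 tested rose. Neutrophil genes summed to 538, 78.8 and 71.4 TPM in CT-26 mice and to between 0.77 and 1.23 TPM in controls, and 6 of 6 tested rose. Fibroblast genes summed to between 253 and 275 TPM in CT-26 muscle and between 321 and 513 TPM in controls. Adipocyte genes summed to between 161 and 201 TPM against 245 to 259, and Schwann cell genes to between 25.4 and 31.6 TPM against 53.0 to 58.7. In each of these 3 lists 6 of 7 genes fell. Satellite cell genes summed to between 21.8 and 29.3 TPM in CT-26 muscle and between 8.01 and 10.02 TPM in controls, with 1 gene higher and 2 lower of 5. Endothelial genes summed to between 50.2 and 70.0 TPM against 42.7 to 47.7, with 1 higher and 2 lower of 6. Of the 5 muscle fibre genes 2 fell, with a median log2 fold change of -0.83. In these bulk samples fewer cells of a type and less RNA per cell cannot be told apart.

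The choice of scaling shifts this muscle as a whole. With library totals in place of TMM, the median log2 fold change over all genes was 0.2, and Atf4 was at 1.16, Chac1 at 2.35, Trib3 at 1.99 and Phgdh at -1.51. The calls over all genes moved from 2801 higher and 2616 lower to 3957 and 1662. The fit on deposited TPM differs in scaling, in the test (limma) and by its offset of 0.5, and these cannot be told apart in it. Its median over all genes was 0.28, with 4473 genes higher and 1018 lower. It gave 1.34 for Atf4 and 2.50 for Chac1. Trib3 was at 1.12 and Phgdh at -0.64. For genes near or below 1 TPM the offset shrinks a ratio, and its share in these values was not tested. All 4 stayed past the threshold in both fits.

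In the hypothalamus 1 of the 10 genes was called, Atf3, which fell. The background there was 8.77% of the 17961 genes tested, 3.94% higher and 4.83% lower. None of the 10 was called higher by edgeR's quasi-likelihood test or by DESeq2, and 3 of the 10 had an unadjusted p below 0.05. The median log2 fold change of the 10 was -0.03, against 0.0 over all genes.

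Atf3 was at a low level in this tissue, at 0.752, 0.505 and 0.458 CPM in CT-26 mice and 1.22, 1.80 and 1.09 CPM in controls. The CT-26 values were all below the controls, from 21, 14 and 24 counts against 36, 61 and 30. On the log2 scale the change was -1.31 ± 0.29, 2.47-fold lower (edgeR's quasi-likelihood test, adjusted p = 0.02099). The call did not hold on TPM with limma (adjusted p = 0.06185) or in a fit of all 12 libraries (adjusted p = 0.6512). It was also lost without CT-26 mouse 2 (0.05567), CT-26 mouse 3 (0.09223) or control mouse 2 (0.1003).

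Psat1 measured 97.7, 87.9 and 93.8 CPM in the hypothalamus of CT-26 mice and 84.6, 83.7 and 81.9 CPM in controls. All CT-26 values were above the controls, but the log2 fold change of 0.16 ± 0.05 did not pass (edgeR's quasi-likelihood test, adjusted p = 0.08106). It passed with library totals only, at 0.19 and an adjusted p of 0.04364. Mthfd2 went the other way, at 7.44, 8.51 and 9.13 CPM in CT-26 mice and 10.2, 10.7 and 10.7 CPM in controls. Its log2 fold change of -0.33 ± 0.10 did not pass either (edgeR's quasi-likelihood test, adjusted p = 0.07227). By overlap, 1 of the 10 genes lay wholly above and 2 wholly below the controls, against 14.7% and 15.6% of all genes, or 30.3% in either direction.

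The remaining 7 genes overlapped between the groups in the hypothalamus. Atf4 was at 115, 98.6 and 108 CPM in CT-26 mice and 113, 125 and 109 CPM in controls, a log2 fold change of -0.11 ± 0.07. Chac1 was at 11.5, 9.98 and 10.7 CPM against 10.6, 10.1 and 10.7, a log2 fold change of 0.03 ± 0.09. Phgdh was at 34.5, 31.9 and 30.7 CPM against 34.0, 31.9 and 29.8, a log2 fold change of 0.02 ± 0.07. For these 3 genes the values of the groups were nearly the same, with small standard errors. The log2 fold changes of Ddit3, Asns and Sesn2 were -0.03 ± 0.09, -0.03 ± 0.05 and -0.08 ± 0.08. Trib3, with 14 to 29 counts per library, was at 0.44 ± 0.32.

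Cell markers shifted in the hypothalamus as well, and their part in these values was not tested. Oligodendrocyte genes summed to between 1527 and 1796 TPM in CT-26 mice and between 2432 and 2733 TPM in controls, and 5 of 6 fell. Microglia and macrophage genes summed to between 98.3 and 114 TPM against 81.9 to 84.7, and 3 of 7 rose. Neutrophil genes summed to 278, 82.7 and 25.8 TPM in CT-26 mice and to between 2.54 and 3.88 TPM in controls, and 5 of 6 tested rose. Astrocyte genes, the markers of a glial cell with active serine synthesis, summed to between 1171 and 1253 TPM against 1151 to 1192, with 1 gene higher and 2 lower of 7. Hypothalamic neuron genes summed to between 5490 and 6286 TPM in CT-26 mice and between 3883 and 5009 TPM in controls, with Agrp and Avp higher and Pomc lower of 7. Endothelial genes summed to between 24.3 and 31.4 TPM against 18.4 to 21.96, with 2 higher and 1 lower of 6.

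The CT-26 effect itself differed between the tissues for 3 of the 10 genes. This was tested as the interaction term over all 12 libraries, with no term for the mouse although each mouse gave both tissues. With the mouse as a block the calls of the 10 genes did not change. In the main fit 33.2% of the 13572 genes tested in both tissues were called, 16.4% higher and 16.8% lower in muscle. The gastrocnemius effect exceeded the hypothalamus effect by 1.05 ± 0.15 on the log2 scale for Atf4 (edgeR's quasi-likelihood test, adjusted p = 0.0003671). For Chac1 the difference was 2.12 ± 0.34 (adjusted p = 0.0007239 in edgeR's test). For Phgdh it was -1.77 ± 0.23 (adjusted p = 0.0001615 in edgeR's test), and -0.60 on log2(TPM + 0.5) with limma, where it did not pass (adjusted p = 0.0575).

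For the other 7 genes the difference did not pass. Trib3 differed by 1.31 ± 0.57 (adjusted p = 0.1107 in edgeR's test), Psat1 by 0.51 ± 0.40 and Mthfd2 by 0.52 ± 0.40. Without 1 library in turn these ran from 1.01 to 1.59 (adjusted p up to 0.242), 0.07 to 0.82 (up to 0.9579) and 0.26 to 0.81 (up to 0.717). Each upper end came without the muscle library of CT-26 mouse 2, where alone each passed (adjusted p = 0.01592, 0.004221 and 0.01172 in edgeR's test). The lowest Psat1 and Mthfd2 values came without that of CT-26 mouse 1. Atf3 differed by 1.51 ± 1.00, Ddit3 by -0.43 ± 0.29, Sesn2 by 0.34 ± 0.17 and Asns by 0.11 ± 0.22.

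The resting levels of most of these genes differed between the tissues, by widely varying ratios. On TPM, 6 of the 10 were higher in all control hypothalamus libraries than in all control gastrocnemius libraries, and 2 were higher in the muscle. Over 18746 genes these shares were 74.6% and 14.3%. The amino acid genes showed the widest gaps. Asns was at 50.04 to 53.35 TPM in control hypothalamus and 0.73 to 0.95 TPM in control muscle, a 61.6-fold ratio of means. Psat1 was 43.1-fold and Phgdh 28.6-fold higher in the hypothalamus. Sesn2 was 10.3-fold, Mthfd2 5.22-fold and Ddit3 2.68-fold higher there.

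Chac1 and Atf3 had the opposite order, 2.10-fold and 5.31-fold higher in control muscle. Chac1 ranked from CT-26 muscle at 67.3 to 130 TPM, through control muscle at 13.2 to 23.6, to both hypothalamus groups, which overlapped and together spanned 7.69 to 8.72 TPM. Atf4 was at 88.7 to 112 TPM in control muscle and 78.4 to 89.3 TPM in control hypothalamus, which overlapped, and CT-26 muscle stood above both at 226 to 282 TPM. Trib3 ranges overlapped between neighbouring groups throughout. Control muscle had 0.28 to 0.32 TPM of Trib3 and CT-26 muscle 0.57 to 1.73 TPM.

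**Figure D3:**
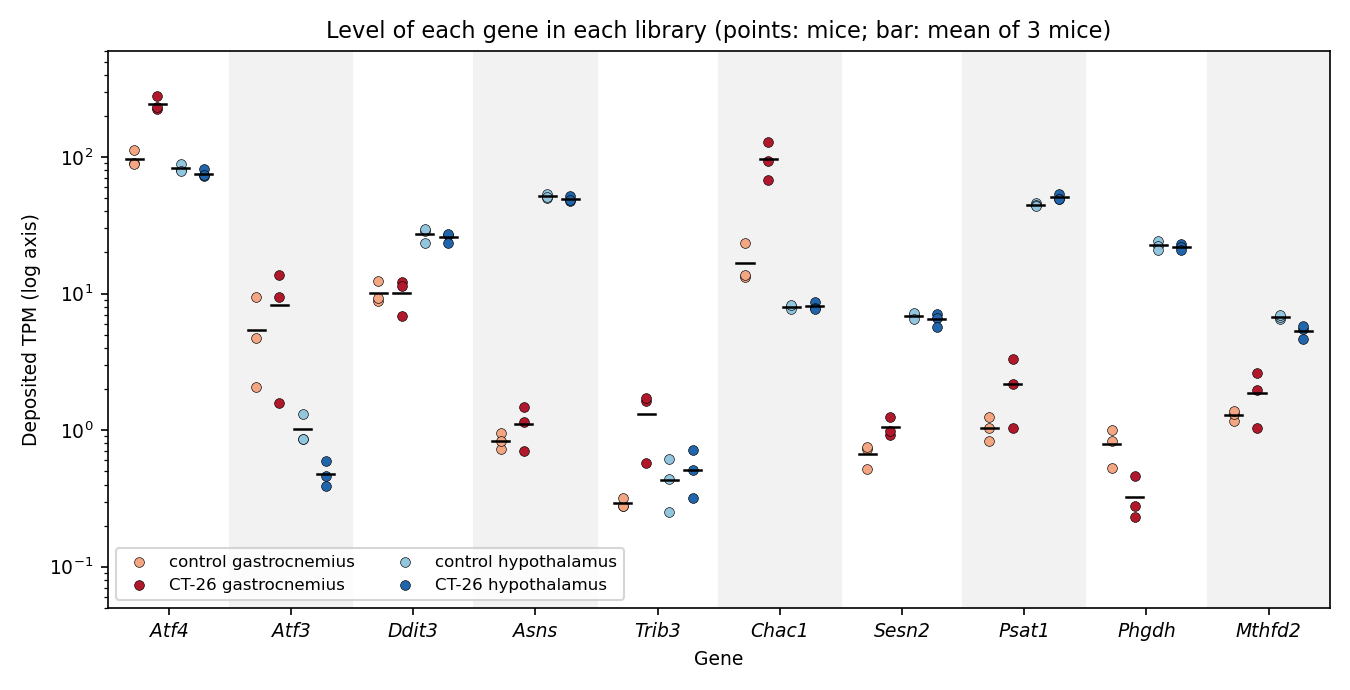
Deposited TPM of each gene in each library (log axis) for control and CT-26 gastrocnemius (orange and red) and control and CT-26 hypothalamus (light and dark blue); points are mice and short bars are means of 3. Asns, Psat1 and Phgdh lie between 0.23 and 3.34 TPM in muscle and at 20.8 TPM or more in the hypothalamus, and CT-26 muscle holds the highest values of Atf4 and Chac1.

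The wider pathway was read from 7 lists of related genes, in which 44 of 82 genes tested in muscle were called (53.7%), against 38.0% of all genes. The lists were chosen with earlier results of these data known. Neither this share nor that in the hypothalamus is therefore a test of the pathway. Of the kinases and factors that control eIF2, 12 of 12 were tested in muscle, 7 rose and 1 fell, with a median log2 fold change of 0.35. Ppp1r15a, which encodes the GADD34 subunit of the phosphatase that reverses eIF2 phosphorylation, was at 125, 71.4 and 77.9 CPM in CT-26 muscle and 14.0, 21.7 and 18.5 CPM in controls. It rose 5.07-fold with no overlap (log2 2.34 ± 0.25, adjusted p = 0.0005278 in edgeR's test). Eif2b5, the catalytic subunit of the exchange factor of eIF2, rose by 0.97 ± 0.11. The double-stranded RNA-activated kinase gene Eif2ak2 fell by 0.96 ± 0.22, a call that did not hold on TPM (adjusted p = 0.1304 with limma). Without any 1 of the 3 control libraries in turn, 4 genes of this list rose.

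The cytosolic aminoacyl-tRNA synthetases, which load amino acids onto transfer RNAs, rose most uniformly in muscle: 10 of 13 rose and 0 fell, with a median of 0.70. DESeq2 also called 0 lower, and the 10 called genes were the only ones with an unadjusted p below 0.05. Without control mouse 1 or control mouse 3 in turn, 8 rose, and on TPM with limma 12 rose. Mars1 was at 88.1, 71.1 and 73.7 CPM in CT-26 mice and 33.4, 37.9 and 36.1 CPM in controls, 2.17-fold higher. The glycyl-tRNA synthetase gene Gars was at 122, 106 and 118 CPM against 58.0, 60.3 and 59.3, 1.95-fold higher. Neither gene's groups overlapped (adjusted p = 0.0006535 and 0.0006979 in edgeR's test).

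Among 17 other genes known to respond to ATF4, 14 were tested in muscle, 6 rose and 2 fell, with a median of 0.60. Eif4ebp1, which encodes the translation repressor 4E-BP1, was at 418, 333 and 398 CPM in CT-26 muscle and 33.7, 43.2 and 34.4 CPM in controls, 10.3-fold higher (adjusted p = 6.851e-05 in edgeR's test). Stc2, which encodes a secreted glycoprotein, was 9.07-fold higher (log2 3.18 ± 0.18). The proline synthesis genes Aldh18a1 and Pycr1 fell, by 1.25 ± 0.26 and 1.14 ± 0.26. The Aldh18a1 call did not hold on TPM (adjusted p = 0.5453 with limma).

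Of 9 amino acid transporter genes 7 were tested in muscle, 2 rose and 1 fell, with a median of 0.59, so that its share of calls was near the 38.0% of all genes. Slc3a2, the heavy chain shared by several exchangers, rose by 0.81 ± 0.12 and the neutral amino acid transporter gene Slc38a2 by 0.72 ± 0.20. The Slc38a2 call was lost without CT-26 mouse 1 or 3 or control mouse 1 or 2, with adjusted p values from 0.05294 to 0.0936. The glutamine transporter gene Slc1a5 fell by 1.05 ± 0.15. Of 8 ATF4 partners and related regulators, 0 rose and 1 fell, the pseudokinase gene Trib2 (-0.51 ± 0.15). DESeq2 called 0 higher and 2 lower, and 5 of the 8 had an unadjusted p below 0.05. With library totals 3 rose and 0 fell, on TPM 4 rose and 0 fell, and without CT-26 mouse 2 there were 3 higher calls. The Trib2 call was lost with library totals, on TPM and without CT-26 mouse 1 or any 1 control mouse.

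The rest of serine, glycine and one-carbon metabolism was mixed in muscle. Of 23 genes 19 were tested, 3 rose and 6 fell, with a median of -0.02 that became 0.17 with library totals and 0.30 on TPM. On TPM 6 rose and 3 fell, and without control mouse 1 the higher calls were 1. Aldh1l2, a mitochondrial enzyme that oxidises formyl-folate, was at 1.57, 1.74 and 2.00 CPM in CT-26 muscle and 9.86, 11.8 and 8.49 CPM in controls. It was 5.69-fold lower with no overlap (adjusted p = 0.0001649 in edgeR's test). Psph, the phosphatase of the last step of serine synthesis, was at 3.03, 4.76 and 3.68 CPM against 9.35, 9.35 and 7.46, and was 2.30-fold lower (adjusted p = 0.00273 in edgeR's test). The transcripts of the first and last enzymes of serine synthesis were thus both lower, that of Phgdh from 14, 11 and 16 counts in CT-26 muscle. Psat1 between them was not called, but without CT-26 mouse 2 it was called higher (1.01, adjusted p = 0.009929 in edgeR's test). Aldh1l1, the cytosolic relative of Aldh1l2, rose by 0.91 ± 0.21 (adjusted p = 0.01081 in edgeR's test).

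Of 9 genes of sestrins and amino acid sensing upstream of mTORC1, 3 rose and 2 fell in muscle, with a median of -0.12 that became 0.08 with library totals and 0.19 on TPM. Sesn1, a relative of Sesn2, was at 247, 82.0 and 165 CPM in CT-26 mice and 10.8, 14.1 and 14.2 CPM in controls. It rose 12.6-fold (adjusted p = 0.0004457 in edgeR's test), with CT-26 mouse 2 again the lowest of its group. Sesn3 fell by 0.98 ± 0.17 and Castor2, a relative of an arginine sensor, by 0.75 ± 0.20; neither held on TPM (adjusted p = 0.1 and 0.2058 with limma). The Castor2 call was also lost without CT-26 mouse 1 or without control mouse 1 or 2 (adjusted p from 0.05101 to 0.06456). Nprl3, a subunit of the GATOR1 complex, rose by 0.53 ± 0.11.

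**Figure D4:**
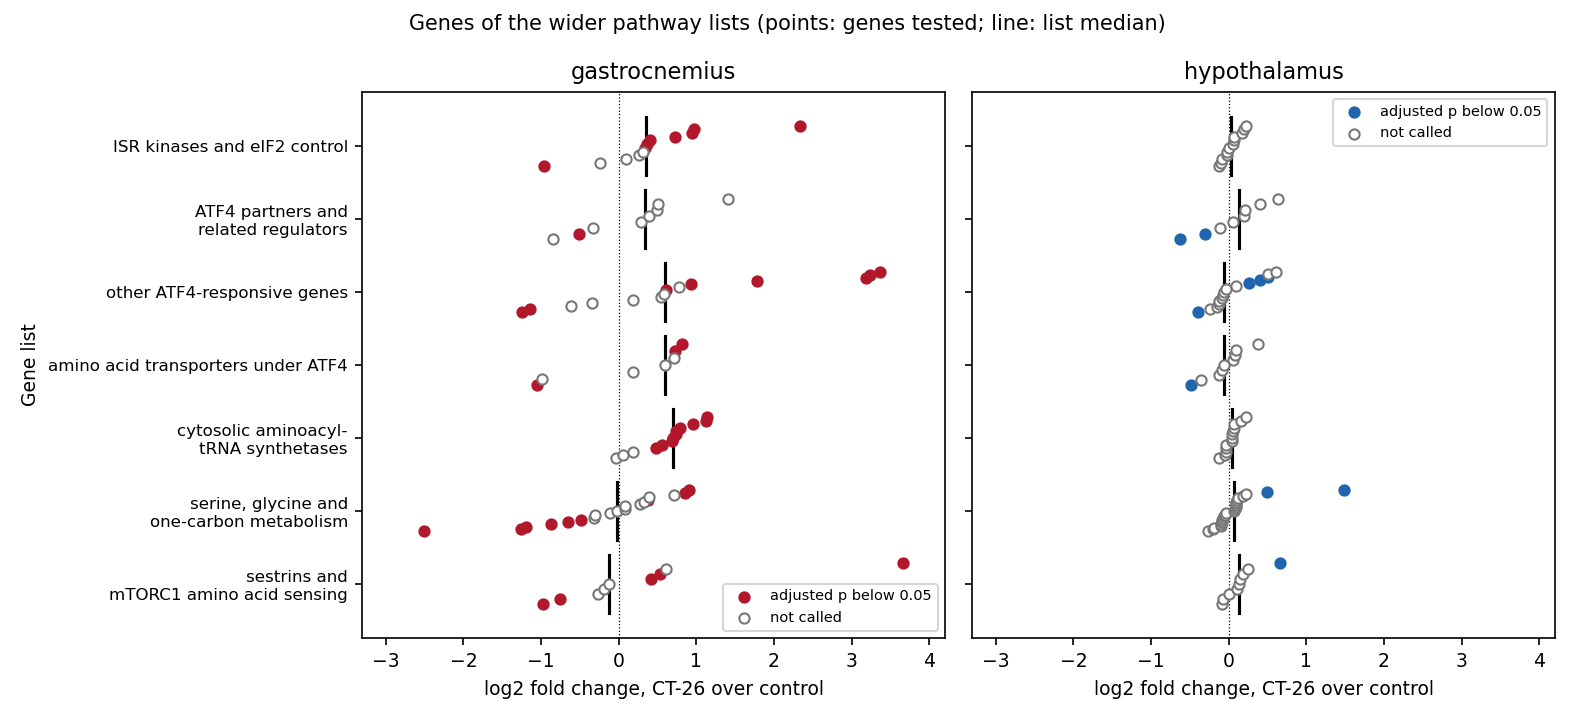
Log2 fold change of CT-26 over control (horizontal axis) for every tested gene of the 7 lists in the gastrocnemius (left) and hypothalamus (right); filled points passed an adjusted p of 0.05, open points did not, and the vertical bar is the list's median. In the gastrocnemius 10 of 13 aminoacyl-tRNA synthetases are filled and above 0, and in the hypothalamus none is filled.

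In the hypothalamus 10 of the 89 genes tested in these lists were called (11.2%), against 8.77% of all genes. None of the 12 eIF2 genes and none of the 13 synthetases was called by edgeR or DESeq2, while 2 and 3 of them had an unadjusted p below 0.05. With library totals, with no filter or with a minimum of 1 CPM in 3 libraries, 1 synthetase was called higher. Of the 15 tested responsive genes 3 rose and 1 fell. The mitochondrial alanine aminotransferase gene Gpt2 rose by 0.41 ± 0.08, the mitochondrial phosphoenolpyruvate carboxykinase gene Pck2 by 0.26 ± 0.07, and the angiogenic factor gene Vegfa fell by 0.40 ± 0.06. In the serine list 2 of 23 rose. Cbs, which joins serine to homocysteine, was at 32.1, 29.4 and 32.2 CPM in CT-26 mice and 20.1, 22.1 and 24.3 CPM in controls (log2 0.50 ± 0.08, adjusted p = 0.005175 in edgeR's test). Sds, which breaks serine down, was at 0.505 to 0.823 CPM against 0.203 to 0.290 (log2 1.48 ± 0.32).

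The glycine transporter gene Slc6a9 fell by 0.49 ± 0.06, as 1 of 9 transporters. Jun and Trib2 fell by 0.63 ± 0.17 and 0.30 ± 0.08, as 2 of 8 partners. The arginine sensor gene Castor1 rose by 0.66 ± 0.15, as 1 of 9 in its list. In a fit of all 12 libraries none of the calls named here for the hypothalamus lists held, and on TPM with limma only that of Slc6a9 did. With DESeq2 the calls of Jun and Sds were lost. Leaving out single libraries ended the call of Gpt2 for CT-26 mouse 1 and that of Jun for each CT-26 mouse. The Pck2 call was lost without any CT-26 mouse or control mouse 1 or 2, and the Trib2 call without CT-26 mouse 1 or 3 or control mouse 2 or 3. The Sds and Castor1 calls were lost without CT-26 mouse 1 or 3 or control mouse 1 or 2.

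The genes whose profiles over the 12 libraries lay nearest to those of Atf4, Chac1 and Phgdh were found by the root mean square difference of log2 CPM, each profile centred on its own mean, among 12294 genes. For Atf4 these were Psmc3, Oser1 and Abcf2, at differences of 0.11, 0.12 and 0.13. For Chac1 they were Bnip3, Cep85l and Abcb1b, at 0.35, 0.37 and 0.37. For Phgdh they were Hspa12a, Robo1 and Map9, at 0.19, 0.20 and 0.22. These are descriptions with no test.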

How the data were processed

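Read pairs of 100 bp came from a directional kit, per the labels' protocols. Tools named in the submitters' processing notes are RSEM 1.3.3, STAR 2.7.9a and Trim Galore 0.6.6, with build GRCm38. The deposited tables hold RSEM expected counts (estimated fragments per gene), with TPM and FPKM computed by the authors. The FPKM column was left aside. The annotation release and strand setting are not given in the sources used here. GENCODE M21 (GRCm38) named 52083 of 55416 identifiers, which held 99.628% of counts. Gene coordinates are from it, and those of the promoter stretches are from the RefSeq windows.

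Expected counts were rounded and tested per tissue with edgeR 4.0.16 (R 4.3.3): filterByExpr, TMM, glmQLFit and glmQLFTest, Benjamini-Hochberg adjustment over all genes tested, called below 0.05. Tissues were compared by the interaction term over 12 libraries (18746 genes). Alternatives were DESeq2 1.42.0, limma 3.58.1 on log2(TPM + 0.5), other scalings and minimum counts, a replicate block and leaving out each library. Summing Phgdh with its copies was added after seeing the data. Replicates differed by more than sampling noise (chi-square per gene 6.32 to 176.15).

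The text names the 10 genes whatever they showed, and from each list in each tissue up to 2 called genes with the smallest p in each direction, plus the 3 nearest profiles to Atf4, Chac1 and Phgdh. A gene that the rule took is not reported here. The members and lists were chosen with earlier results of these data known. In counts simulated on the gastrocnemius (13981 genes), the test recovered 7.46% of genes changed 1.5-fold, 59.7% changed 2-fold and 98.5% changed 4-fold. On the hypothalamus (17741 genes) these were 76.1%, 95.5% and 100%, and on the difference (18507 genes) 4.48%, 38.8% and 83.3%. Of the calls, 6.78%, 9.95% and 3.45% were unchanged genes. Changes were simulated only in genes above a minimum mean count. Trib3 in each tissue, Phgdh in muscle and Atf3 in the hypothalamus lay below it, so the recovery rates do not cover them. Tissues with the same mouse number come from the same animal per the labels' titles; their deviations correlated between -0.02 and 0.09.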

Additional observations from a re-analysis of the deposited data

Results flagged for a closer look

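The CT-26 effect differed between gastrocnemius and hypothalamus, by the interaction term of edgeR's quasi-likelihood test, for the genes below. Each value is the log2 fold change in the gastrocnemius minus that in the hypothalamus. Beyond the 10, the genes had been named for a small p within a tissue of these data, which favours a difference. Of all genes tested in both tissues, 33.2% were called in the same test. Among the 10 genes these were Atf4 (1.05), Chac1 (2.12) and Phgdh (-1.77). In the eIF2 list they were Ppp1r15a (2.11), Eif2b5 (0.89) and Eif2ak2 (-1.14). Among other ATF4-responsive genes they were Stc2 (3.40), Eif4ebp1 (2.84), Aldh18a1 (-1.13) and Pycr1 (-1.09). For Stc2 the 2 effects were 3.18 and -0.24.

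The transporters Slc6a9 (1.06), Slc3a2 (0.72) and Slc1a5 (-1.44) and the synthetases Mars1 (1.14) and Gars (0.88) also differed. The single effects of Slc6a9 were 0.59, not called, in muscle and -0.49 in the hypothalamus. The transcription factor gene Jun differed by 1.11, from 0.49, not called, and -0.63. In serine and one-carbon metabolism Aldh1l2 (-2.33), Psph (-1.12) and Aldh1l1 (0.68) differed. With the mouse as a replicate block the differences of Aldh1l1 and Pycr1 did not pass (adjusted p = 0.05458 and 0.06627 in edgeR's test). Among the sestrins and sensors the genes were Sesn1 (3.49), Sesn3 (-0.92) and Castor2 (-0.89). On TPM with limma Aldh18a1, Pycr1, Castor2, Sesn3 and Eif2ak2 did not pass (adjusted p from 0.05445 to 0.7531). The call was lost without 10 of the 12 libraries in turn for Aldh1l1 (adjusted p up to 0.1034), 7 for Pycr1 (up to 0.08367) and 6 for Jun (up to 0.07929).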

How the results depend on the processing

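The precision is limited by 3 mice per group and, for Phgdh and Trib3 in muscle and Atf3 in the hypothalamus, by 11 to 103 counts per library. In muscle, calls over all genes were 2801 higher and 2616 lower. They were 3957 higher and 1662 lower with library totals and 4473 and 1018 on TPM. The fit of all 12 libraries gave 3826 higher and 3984 lower. Without 1 library they were 1768 to 2779 higher and 1779 to 2671 lower. Of the 10 genes 3 rose and 1 fell; under a minimum of 1 CPM, where Trib3 and Phgdh could not be tested, 2 rose and 0 fell, and without 1 library 2 to 4 rose. In the hypothalamus (708 and 867) there were 1307 higher and 1291 lower with no filter and 245 and 275 on TPM. There were 108 and 54 in the fit of all 12 libraries, and 283 to 543 higher and 293 to 725 lower without 1 library. Of the 10 genes there, 1 rose with library totals, 0 fell on TPM and in the fit of all 12, and 0 to 1 fell without 1 library. For the difference (2224 and 2286) there were 3106 higher and 1385 lower with library totals and 3816 and 652 on TPM. Without 1 library there were 1575 to 2624 higher and 1759 to 2687 lower. Of the 10 genes, 0 were lower on TPM and 2 to 5 higher without 1 library. Causes were not tested.

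A replicate block on the number shared within a tissue gave 2887 higher and 2834 lower calls in muscle and 506 and 605 in the hypothalamus. Same-numbered mice of the 2 groups are different animals, with deviations correlated at -0.06, 0.18 and 0.26 in muscle and -0.1, -0.03 and 0 in the hypothalamus, and not every library correlated best with its own number. With the mouse as a block the difference gave 1725 and 1874 calls. The calls of the 10 genes did not change under these blocks; in the hypothalamus Pck2 and Trib2 lost theirs, as did Aldh1l1 and Pycr1 for the difference.

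Some changes that were not called turned sign. Without 1 library they ran, in muscle, from -0.06 to 0.27 for Asns, -0.20 to 0.75 for Atf3 and -0.07 to 0.52 for Mthfd2. In the hypothalamus they ran from -0.02 to 0.09 for Chac1, -0.03 to 0.07 for Phgdh, -0.11 to 0.03 for Ddit3 and -0.06 to 0.01 for Asns, and Phgdh was at -0.04 on TPM. The differences ran from -0.02 to 0.26 for Asns, -0.45 to 0.01 for Vegfa and -0.18 to 0.07 for Castor1. Castor1 was at 0.12 with library totals, and on TPM Castor1 was at 0.11, Ddit3 0.04, Trib2 0.17 and Vegfa 0.14.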
